A study of Mus musculus with 14 samples.

Results

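Promoter methylation of mammary hormone and lineage genes was examined in clones of the mouse mammary carcinoma line 4T1. The genes were chosen by name, and were the receptors Esr1, Pgr and Prlr, the transcription factors Gata3, Foxa1 and Elf5, and the milk genes Csn2, Csn3, Wap and Ltf. Of these 10 genes, 9 had a promoter level, out of 20343 genes in all. Elf5 had 2 promoter rows, which gave 10 rows out of 21965, and a promoter level of Csn2 was not analysed here. Clones E and T were labelled as intravasating, that is, able to enter blood vessels, and were set against clones I, K, L and P, labelled as non-intravasating. Each clone was grown from a single sorted 4T1 cell, so that a group is a set of clones of 1 tumour line, and the labels give no treatment for any of them. Genomic DNA was bisulfite converted and sequenced, and the deposited level is the fraction of cytosine read as methylated, from 0 to 1, with 1 value per clone.

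In the mammary gland, oestrogen and progesterone act through nuclear receptors in hormone-sensing luminal cells, and prolactin acts through a cytokine receptor that signals by JAK2 and STAT5 to switch on milk genes in alveolar cells. GATA3 and FOXA1 maintain the hormone-sensing luminal state, and ELF5 directs the alveolar, milk-producing one. Methylation of CG dinucleotides around a start site often accompanies silence of CG-rich promoters, whereas CG-poor promoters of tissue-specific genes are often methylated outside the tissue that uses them. Expression was not measured in these data.

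The sequences at the start sites show how differently these promoters are built. They are given for the genes with the lowest and highest levels, Gata3, Foxa1, Esr1, Pgr and Wap, from RefSeq (GRCm38.p6). Each runs from 250 bases before to 50 bases after a start, in the gene's own direction, with every CG dinucleotide in capitals. The promoter boundaries behind the deposited levels are not stated, so a level need not stand for these 300 bases.
Gata3, chr2:9878551-9878850, minus strand, 22 CG: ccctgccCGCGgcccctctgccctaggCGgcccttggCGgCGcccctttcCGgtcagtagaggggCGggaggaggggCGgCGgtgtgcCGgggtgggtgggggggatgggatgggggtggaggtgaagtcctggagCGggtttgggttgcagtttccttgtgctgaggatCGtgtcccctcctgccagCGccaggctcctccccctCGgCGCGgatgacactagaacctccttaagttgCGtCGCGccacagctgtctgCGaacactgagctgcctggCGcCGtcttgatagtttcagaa
Foxa1, chr12:57546062-57546361, minus strand, 26 CG: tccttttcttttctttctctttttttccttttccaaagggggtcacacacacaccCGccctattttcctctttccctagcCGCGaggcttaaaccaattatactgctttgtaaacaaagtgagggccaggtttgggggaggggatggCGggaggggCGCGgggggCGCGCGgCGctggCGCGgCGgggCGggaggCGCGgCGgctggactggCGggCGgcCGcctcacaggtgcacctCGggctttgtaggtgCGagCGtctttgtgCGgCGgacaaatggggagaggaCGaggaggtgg
Esr1, first start, chr10:4611739-4612038, plus strand, 6 CG: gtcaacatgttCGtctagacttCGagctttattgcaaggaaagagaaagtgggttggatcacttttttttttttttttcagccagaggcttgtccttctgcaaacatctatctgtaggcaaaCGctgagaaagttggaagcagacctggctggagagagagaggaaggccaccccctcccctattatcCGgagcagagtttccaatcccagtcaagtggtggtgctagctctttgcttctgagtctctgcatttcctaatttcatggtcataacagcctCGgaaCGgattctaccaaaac
Esr1, second start, chr10:4709908-4710207, plus strand, 12 CG: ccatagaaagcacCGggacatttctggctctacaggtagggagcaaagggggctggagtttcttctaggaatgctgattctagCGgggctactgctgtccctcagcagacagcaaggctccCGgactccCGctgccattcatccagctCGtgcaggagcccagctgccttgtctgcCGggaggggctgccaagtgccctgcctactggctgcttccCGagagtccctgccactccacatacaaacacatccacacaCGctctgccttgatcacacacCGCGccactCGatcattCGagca
Pgr, chr9:8899583-8899882, plus strand, 6 CG: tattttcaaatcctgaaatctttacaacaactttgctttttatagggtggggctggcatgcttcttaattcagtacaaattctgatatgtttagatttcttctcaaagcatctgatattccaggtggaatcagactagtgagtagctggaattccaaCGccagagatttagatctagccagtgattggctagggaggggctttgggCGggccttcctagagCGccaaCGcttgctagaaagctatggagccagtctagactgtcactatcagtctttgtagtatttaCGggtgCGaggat
Wap, chr11:6638600-6638899, minus strand, 3 CG: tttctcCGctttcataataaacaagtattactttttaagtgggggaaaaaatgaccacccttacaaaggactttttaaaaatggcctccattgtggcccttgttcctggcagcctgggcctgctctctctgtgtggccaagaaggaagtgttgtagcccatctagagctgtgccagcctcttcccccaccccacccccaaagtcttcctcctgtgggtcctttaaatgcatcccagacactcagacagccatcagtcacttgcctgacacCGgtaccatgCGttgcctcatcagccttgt
The windows of Gata3, Foxa1, Pgr and the second Esr1 start lie inside the annotated span of their gene, and the other windows reach out of it. The low-level genes Gata3 and Foxa1 are the CG-rich ones of this set, and the high-level genes Pgr and Wap hold few CG. Esr1 departs from this: its level was low, yet its first start holds 6 CG, as many as Pgr, and its second 12.

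The 10 rows fell into 3 ranges of level. Gata3, Foxa1 and Esr1 were nearly free of methylation, with means under 0.1, as were 24.1% of all promoters. Pgr and Wap had means of at least 0.8, as did 14.5% of all promoters. Csn3, Ltf, Prlr and the lower of the Elf5 rows lay between 0.4 and 0.7, a range that held 21.5% of all promoters, and the higher Elf5 row was at 0.724. No row passed the test between intravasating and non-intravasating clones.

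**Figure D1:**
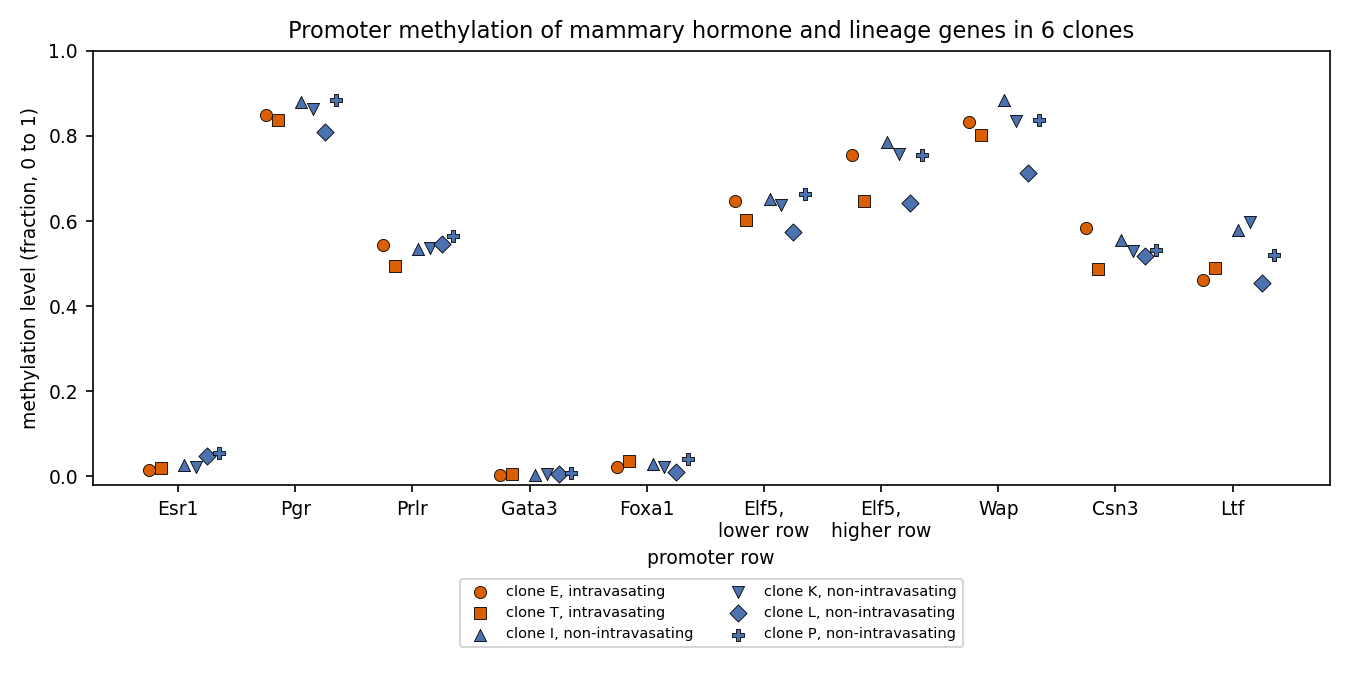
Methylation level (vertical axis, fraction from 0 to 1) of each of the 10 promoter rows (horizontal axis) in the 6 clones, 1 point per clone, with clones E and T in orange and clones I, K, L and P in blue. Esr1, Gata3 and Foxa1 lie below 0.1 in every clone, Pgr lies above 0.8 in every clone, and the clones of both groups overlap in every row except Esr1.

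Esr1 encodes oestrogen receptor alpha, and its gene spans 4611989 to 5005633 on the plus strand of chromosome 10. Its single promoter row was at 0.0158 (clone E) and 0.0187 (clone T) in the intravasating pair, against 0.0272 (I), 0.0219 (K), 0.0479 (L) and 0.0545 (P). Both intravasating clones lay below all 4 others, by a gap of 0.00320 between the nearest clones. The difference of means was -0.0206 ± 0.0101 (SE), with an unadjusted limma p of 0.0726 and an adjusted limma p of 1.00. Esr1 was the only row of the 10 without overlap, and intravasating clones lay below the others without overlap at 6.89% of all promoters. Whether the row stands for the first or the second start of Esr1 is not known.

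The promoters beside Esr1 differed in the order of clones. Rmnd1, the next gene to the left with a level, had 0.0473 (clone E) and 0.0790 (clone T), above the non-intravasating clones at 0.0229 to 0.0367. Its difference of 0.0341 had the opposite sign to that of Esr1, with an unadjusted limma p of 0.00785. Syne1, on the right, had 3 rows with means of 0.108, 0.834 and 0.897. In the most methylated of them clones E and T lay lowest, as in Esr1, with 0.869 (E) and 0.863 (T), against 0.918 (I), 0.934 (K), 0.894 (L) and 0.905 (P). Its difference was -0.0467, with an unadjusted limma p of 0.0386, and the groups overlapped in its other rows. Both neighbours were taken by position alone, but after values were seen. Among all neighbour rows looked at, Rmnd1 and the most methylated Syne1 row were the only ones with an unadjusted limma p under 0.05. Such a p was reached by 3.93% of all promoters, and neither row passed the adjusted limma test.

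Pgr encodes the progesterone receptor, a gene that oestrogen receptor induces in mammary cells, and spans 8898900 to 8968611 on the plus strand of chromosome 9. Its promoter was the most methylated of the 10 rows, at 0.849 (clone E) and 0.836 (clone T) in the intravasating pair, against 0.879 (I), 0.863 (K), 0.808 (L) and 0.884 (P). Clone L was the lowest and clone P the highest, so that the groups overlapped. The difference was -0.0158 ± 0.0264 (SE; 95% interval -0.0759 to 0.0442), with an unadjusted limma p of 0.564. It was -0.0327 without clone L and -0.00728 without clone P. At 0.853 ± 0.0286 (SD, n = 6), Pgr was above 90.8% of all promoters, whereas Esr1, at 0.0310 ± 0.0162 (SD, n = 6), was above 9.85% of them. The promoter of Arhgap42, the next gene to the right of Pgr, was at 0.0867 ± 0.0127 (SD, n = 6).

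Prlr encodes the prolactin receptor and spans 10177238 to 10349190 on the plus strand of chromosome 15. It has 3 starts in the RefSeq table, with 8, 2 and 4 CG in 300 bases, and a single promoter row. That row was at 0.543 (clone E) and 0.493 (clone T) in the intravasating pair, against 0.534 (I), 0.536 (K), 0.546 (L) and 0.566 (P). Clone T was the lowest by 0.0409, while clone E lay among the non-intravasating clones. The difference was -0.0273 ± 0.0428 (SE), with an unadjusted limma p of 0.540, and was -0.00214 without clone T. The range over the 6 clones, 0.0725, was small for an intermediate level: only 3.72% of the 1507 promoters with a mean within 0.05 of that of Prlr had a smaller range. In clone L the median of those promoters was 0.485, below the 0.546 of Prlr.

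Gata3, a zinc finger factor needed for luminal cells, spans 9857078 to 9887953 on the minus strand of chromosome 2. Its promoter was the least methylated of the 10 rows, at 0.00336 (clone E) and 0.00516 (clone T) in the intravasating pair, against 0.00278 (I), 0.00622 (K), 0.00546 (L) and 0.00890 (P). Every clone was thus below 0.01, and the groups overlapped. The difference was -0.00158 ± 0.00495 (SE), with an unadjusted limma p of 0.757. Only 0.419% of all promoters had a lower mean. The next gene to the left, 1700061F12Rik, was at 0.814 ± 0.0344 (SD, n = 6), and the next to the right, Taf3, at 0.0321 ± 0.0105 (SD, n = 6).

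Foxa1, a forkhead factor that opens chromatin for oestrogen receptor, spans 57540628 to 57548029 on the minus strand of chromosome 12. Its promoter was at 0.0219 (clone E) and 0.0357 (clone T) in the intravasating pair, against 0.0283 (I), 0.0229 (K), 0.00942 (L) and 0.0421 (P). The intravasating clones lay inside the range of the others, which ran from clone L to clone P. The difference was 0.00311 ± 0.00948 (SE), with an unadjusted limma p of 0.751, and its sign turned without clone T (-0.00378) and without clone L (-0.00231).

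Elf5, an ETS family factor of alveolar cells, spans 103412098 to 103450989 on the plus strand of chromosome 2. It has 2 starts in the RefSeq table, with 3 and 10 CG in 300 bases, and which row belongs to which start is not known. The lower row was at 0.648 (clone E) and 0.602 (clone T) in the intravasating pair, against 0.651 (I), 0.638 (K), 0.574 (L) and 0.664 (P). The higher row was at 0.755 (clone E) and 0.647 (clone T) in the intravasating pair, against 0.785 (I), 0.758 (K), 0.642 (L) and 0.756 (P). Both rows had clone L lowest and clone T next. In the higher row the clones with low levels, T and L, came from different groups. The differences were -0.00736 ± 0.0411 (SE) for the lower and -0.0346 ± 0.0480 (SE) for the higher row, with unadjusted limma p of 0.862 and 0.489. Without clone T both signs turned, to 0.0158 and 0.0194, and that of the lower row also without clone P (0.00340). Cat, the catalase gene, lies 2915 bases to the right of Elf5, and its promoter was at 0.0671 ± 0.0193 (SD, n = 6).

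Wap encodes whey acidic protein, a main whey protein of mouse milk, and spans 6635483 to 6638654 on the minus strand of chromosome 11. Its promoter was at 0.832 (clone E) and 0.803 (clone T) in the intravasating pair, against 0.885 (I), 0.835 (K), 0.712 (L) and 0.837 (P). Clone L stood 0.0912 below the next clone, and the intravasating clones lay between it and clone K. The group means were nearly equal, 0.818 ± 0.0204 (SD, n = 2) for clones E and T and 0.817 ± 0.0740 (SD, n = 4) for clones I, K, L and P. The difference was 0.000293 ± 0.0436 (SE). Its sign turned without clone L (-0.0348) and without clone E (-0.0141). Wap varied most among the 10 rows, with a range of 0.173. That range exceeded those of 93.3% of the 2193 promoters with a mean within 0.05 of that of Wap. In clone L these promoters had a median of 0.784, above the 0.712 of Wap, and in clone I a median of 0.842, below the 0.885 of Wap. Tbrg4, the next gene to the left of Wap, was at 0.0579 ± 0.0222 (SD, n = 6), and Gm11978, to the right, at 0.792 ± 0.0613 (SD, n = 6).

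The pattern of Wap over the clones was compared with that of 2328 promoters with a range of at least 0.2. The highest Pearson r over the 6 clones was 0.996 for 4921517D22Rik, followed by 0.991 for Celf2 and 0.9905 for Rprl2. All 3 had their lowest level in clone L and their highest in clone I, as Wap had. All these promoters were measured in the same libraries of each clone and share its genome-wide shifts. The best of so many candidates over 6 points is a description only.

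Csn3 encodes kappa-casein, which keeps casein micelles in suspension, and spans 87925579 to 87932550 on chromosome 5. Its promoter was at 0.583 (clone E) and 0.488 (clone T) in the intravasating pair, against 0.557 (I), 0.529 (K), 0.517 (L) and 0.532 (P). Clones E and T were the highest and the lowest of the 6, so the intravasating pair enclosed all others. The difference was 0.00182 ± 0.0462 (SE), with an unadjusted limma p of 0.969, and its sign turned without clone E (-0.0457) and without clone L (-0.00368). On either side of Csn3, Odam was at 0.502 ± 0.0698 and Smr3a at 0.168 ± 0.0369 (SD, n = 6 each).

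Ltf encodes lactoferrin, an iron-binding protein of milk and of neutrophil granules, and spans 111019292 to 111042766 on the plus strand of chromosome 9. Its promoter was at 0.462 (clone E) and 0.490 (clone T) in the intravasating pair, against 0.578 (I), 0.598 (K), 0.454 (L) and 0.520 (P). Clone L was below both intravasating clones, and the other 3 non-intravasating clones were above them. The difference, -0.0617 ± 0.0535 (SE; 95% interval -0.183 to 0.0599), had the largest size of the 10 rows, and its unadjusted limma p was 0.280. Without clone L the difference was -0.0894. In clone E, Ltf differed by -0.0746 from the median of 0.536 for the 1489 promoters with a mean within 0.05 of its own. In clone K it was 0.0581 above their median of 0.540.

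Set side by side, none of the 10 rows passed the test between the groups, and limma called 0.00911% of all promoters at an adjusted p under 0.05. None had an unadjusted limma p under 0.05 either, a level that 3.93% of all promoters reached, 1.68% as higher and 2.26% as lower in the intravasating clones. None lay above the other clones without overlap, as 4.31% of all promoters did. The intravasating mean was the lower one in 7 of the 10 rows and the higher one in 3. It was the lower one at 57.5% of all promoters. After each clone was centred on its median it was the lower one in 5 of the 10 rows and at 44.8% of all promoters. Without clone L it was the lower one in all 10 rows and at 65.8% of all promoters. Without clone E these were 9 rows and 67.3%, without clone T 6 rows and 45.0%, and without clone P 6 rows and 54.0%. Without clone I or K it was the lower one in 7 rows, against 51.5% and 56.1% of all promoters. The median difference was -0.0116 for the 10 rows and -0.00424 for all promoters, and after centring it was -0.00415 and 0.00321. The 95% limma intervals take part of their spread from other promoters of a like level. They reached from -0.0128 to 0.00966 for Gata3 and from -0.144 to 0.0743 for the higher Elf5 row. They take no account of the floor at 0: the low end for Gata3 is further from 0 than its non-intravasating mean of 0.00584.

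**Figure D2:**
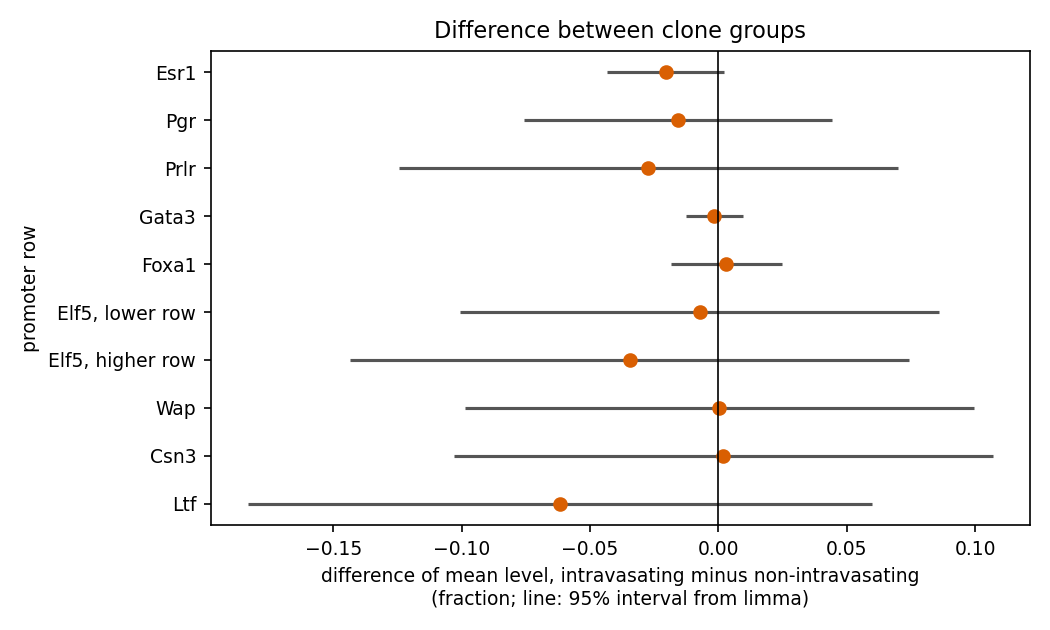
Difference of the mean methylation level between groups (horizontal axis, fraction, intravasating minus non-intravasating clones) for each of the 10 promoter rows (vertical axis); points are the differences and lines the 95% intervals from limma. All 10 lines cross 0, and the line for Ltf reaches furthest below it, to -0.183.

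The clones also differed in level as a whole. Clone L was the lowest of the 6 in 6 of the 10 rows, as it was in 36.0% of all promoters, and clone T was the lowest in 2. Together they were the lowest in 8, against 60.8% of all promoters. Among the 7 rows with a mean of at least 0.4, clone L was lowest in 5 and clone T in the remaining 2, whereas clone L was lowest in 51.0% and clone T in 27.8% of the 9942 promoters at such levels. Clone P was the highest in 6 of the 10 rows, against 19.8% of all promoters. Among the 7 rows with a mean of at least 0.4 it was the highest in 3, against 22.3% of the promoters at such levels. In Gata3, Foxa1 and Esr1, all near 0, it led the next clone by 0.00268, 0.00640 and 0.00661. The mean over all promoters was 0.404 (clone E) and 0.377 (clone T) in the intravasating pair, against 0.412 (I), 0.402 (K), 0.369 (L) and 0.406 (P). By group it was 0.391 ± 0.0192 (SD, n = 2) for clones E and T and 0.397 ± 0.0189 (SD, n = 4) for clones I, K, L and P. The exact permutation test over 15 splits gave p = 0.867, two-sided, where the smallest possible p is 0.0667. The part of these clone-wide levels in the values of single genes was not tested.

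**Figure D3:**
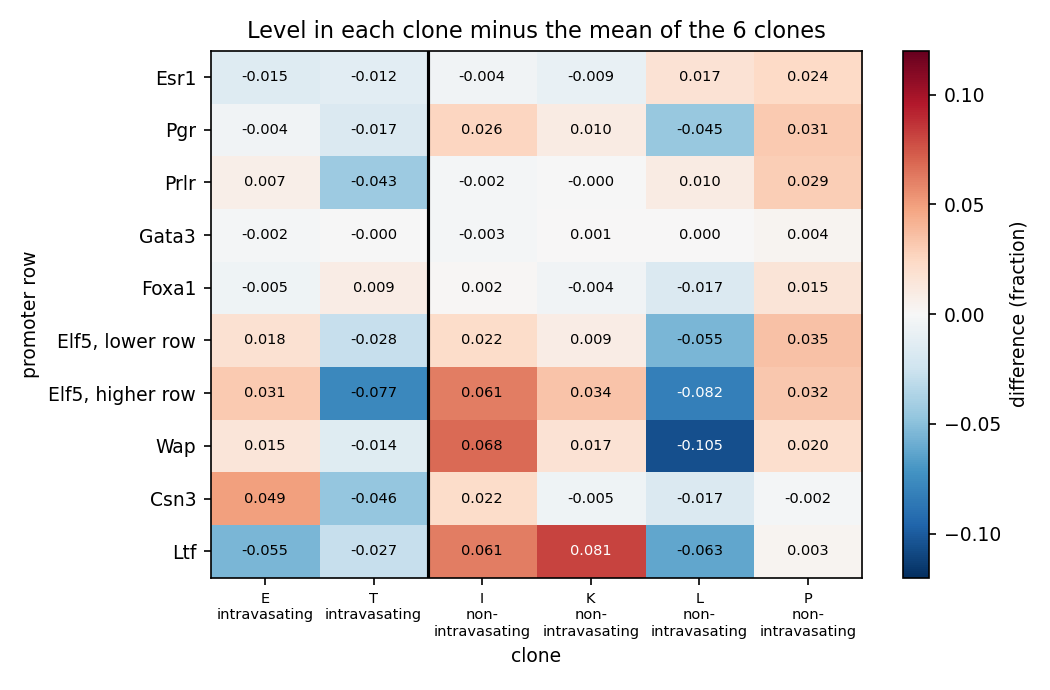
Level of each promoter row (vertical axis) in each clone (horizontal axis) minus the mean of the 6 clones, as a fraction; red is above and blue below that mean, and the black line separates clones E and T from clones I, K, L and P. Wap in clone L is lowest, at -0.105, and Ltf in clone K is highest, at 0.081.

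The median range was 0.0832 for the 10 rows and 0.0894 for all promoters, and 3 of the 10 rows, Wap, Ltf and the higher Elf5 row, had a range of at least 0.1, as did 43.8% of all promoters. Compared with promoters of a like level, the lower Elf5 row and Csn3 varied little, since only 11.7% and 12.6% of such promoters had a smaller range. For Pgr the share was 42.2%, for Ltf 38.3% and for the higher Elf5 row 60.5%.

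The number of CG dinucleotides at the start site was set beside the level. Over the 11848 genes with 1 promoter row and 1 RefSeq start, the median level was 0.416 for genes with 0 to 2 CG, 0.618 for those with 3 to 5, 0.621 for those with 6 to 10, 0.199 for those with 11 to 20 and 0.112 for those with 21 or more. Gata3 and Foxa1 lay low in their class, since 0.751% and 17.4% of genes with 21 or more CG had a lower level. Wap, with 3 CG, was above 84.3% of its class, and Ltf, with 4, above 33.9%. Pgr, with 6 CG, was above 89.7% of genes with 6 to 10. The annotated spans of Gata3, Foxa1 and Pgr begin before the start counted here, so their rows may stand for another start. Neither start of Esr1 held more than 12 CG in its 300 bases, and the medians of the classes with 6 to 10 and 11 to 20 CG were both above the 0.0310 of Esr1.

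**Figure D4:**
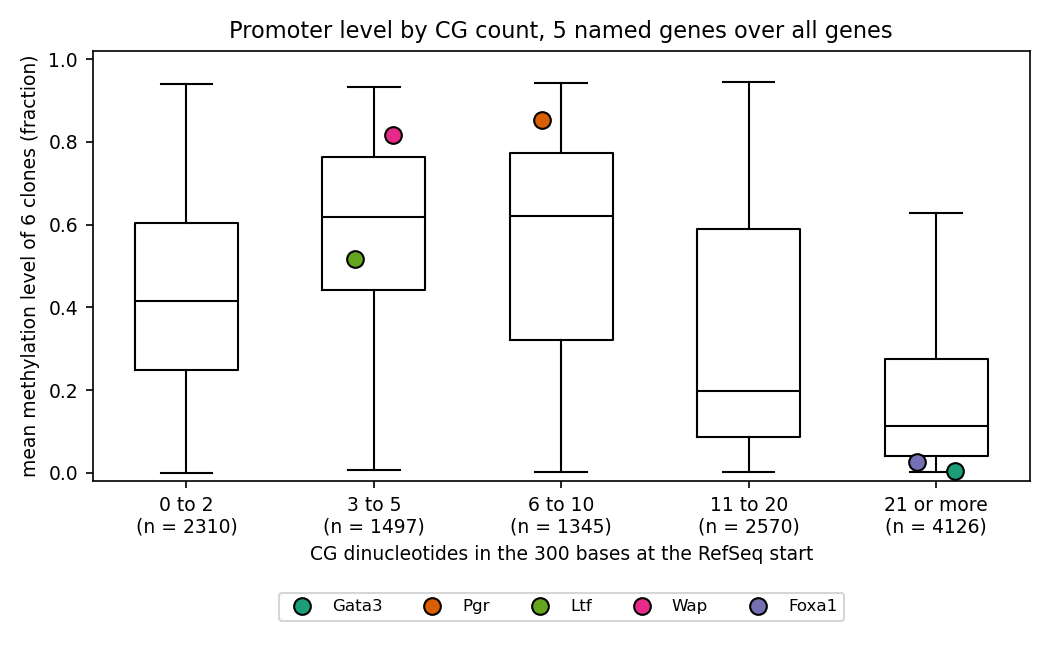
Mean methylation level of the 6 clones (vertical axis, fraction) for genes grouped by the number of CG dinucleotides in the 300 bases at the RefSeq start (horizontal axis); boxes give the median and quartiles over all genes of a class, whiskers the last gene within 1.5 box heights of the box, and points mark the 5 genes with 1 row and 1 start. Pgr and Wap lie above the boxes of their classes, Ltf lies inside its box, and Gata3 and Foxa1 lie below theirs. The rows of Gata3, Foxa1 and Pgr may stand for another start than the one counted.

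Short motifs of the factors that act on these genes were searched on both strands of the 13 start windows of 9 of the genes, Csn2 included and Csn3 not. The STAT5 type palindrome TTCNNNGAA was in 3 of the 13 windows, those of Csn2, the second Esr1 start and the second Prlr start, and in 8.30% of the 32841 windows of all genes. The forkhead core TGTTTA was in 6 of the 13, of Csn2, Pgr, Wap, Foxa1 and the first and second Prlr starts, and in 13.4% of all windows. The GATA type AGATAA and the oestrogen receptor type AGGTCA were each in 1 window, that of Ltf, at 11.2% and 16.3% of all. The ETS type CCGGAA was in 1, that of Gata3, and in 14.9% of all. A match is a run of letters and not a shown binding site.

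Genes that work with these were read from lists. No row of any list passed the limma test, which called 0.00911% of all promoters. None had groups 0.1 or more apart without overlap, and the share of all promoters with such a gap was not counted. Rows without overlap but with a smaller gap were in every list except that of adipocyte genes, and 11.2% of all promoters had no overlap. Milk proteins and secretion genes ranged from Mfge8, which coats milk fat globules, at 0.0245 ± 0.0169 to the phosphate carrier gene Slc34a2 at 0.818 ± 0.0276 (SD, n = 6 each). Of their 15 rows, 13 had the lower mean in clones E and T and 2 the higher one, with a median difference of -0.0210. The lower mean was in these clones at 57.5% of all promoters. After centring 12 rows were lower, against 44.8% of all promoters. With a clone left out, 10 (without clone T) to 14 (without clone L) were lower, where all promoters gave 45.0% and 65.8%. The 1 row of this list with an unadjusted limma p under 0.05 was that of Xdh, xanthine dehydrogenase, a protein of the milk fat globule coat, singled out after its values were seen. It had 0.0789 (clone E) and 0.0788 (clone T), against 0.113 (I), 0.179 (K), 0.147 (L) and 0.128 (P), with an unadjusted limma p of 0.0135 and an adjusted limma p of 1.00. The casein gene Csn1s2a varied most in this list, at 0.0220 (clone E) and 0.111 (clone T) in the intravasating pair, against 0.0889 (I), 0.128 (K), 0.0921 (L) and 0.258 (P). It had a lower level than its neighbours in the casein cluster, since Csn1s2b was at 0.482 and Csn3 at 0.535 as means of 6 clones.

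Among prolactin signalling genes, Jak2, the kinase bound to the prolactin receptor, was at 0.00787 as the mean of 6 clones. The rows of Stat5b lay far apart, at 0.0476 and 0.903, and those of Stat5a at 0.339 and 0.390. Nfib was the lowest of this list at 0.00565 and Erbb4, a neuregulin receptor of lactating epithelium, the highest at 0.909. The largest range was that of 1 of the 4 Socs2 rows, at 0.467 (clone E) and 0.301 (clone T) in the intravasating pair, against 0.510 (I), 0.390 (K), 0.478 (L) and 0.459 (P). Of the 18 rows 12 were lower in mean in clones E and T, and 9 after centring, against 57.5% and 44.8% of all promoters.

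Among steroid receptors and cofactors, the progesterone-binding membrane protein gene Pgrmc2 was the lowest at 0.00542, and Pgrmc1 had the largest range, 0.131. Lower means in clones E and T were counted in 7 of 11 rows, and in 5 after centring. In the hormone response list Wnt4, a progesterone target, was at 0.934 and the cyclin gene Ccnd1 at 0.00384. Tff3 had the largest range there, 0.285, with clone L lowest at 0.277 and clone P highest at 0.562. This list had 9 of 14 rows with the higher mean in clones E and T, and 9 after centring. In the list of luminal lineage factors Zfpm1, a cofactor of GATA proteins, was lowest at 0.00943, 1 of the rows of Tbx3 was highest at 0.907, and Spdef had the largest range, 0.182. Of its 22 rows 14 were lower in mean in clones E and T, and 9 after centring. Over all promoters the lower mean was in clones E and T at 57.5%, and at 44.8% after centring.

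**Figure D5:**
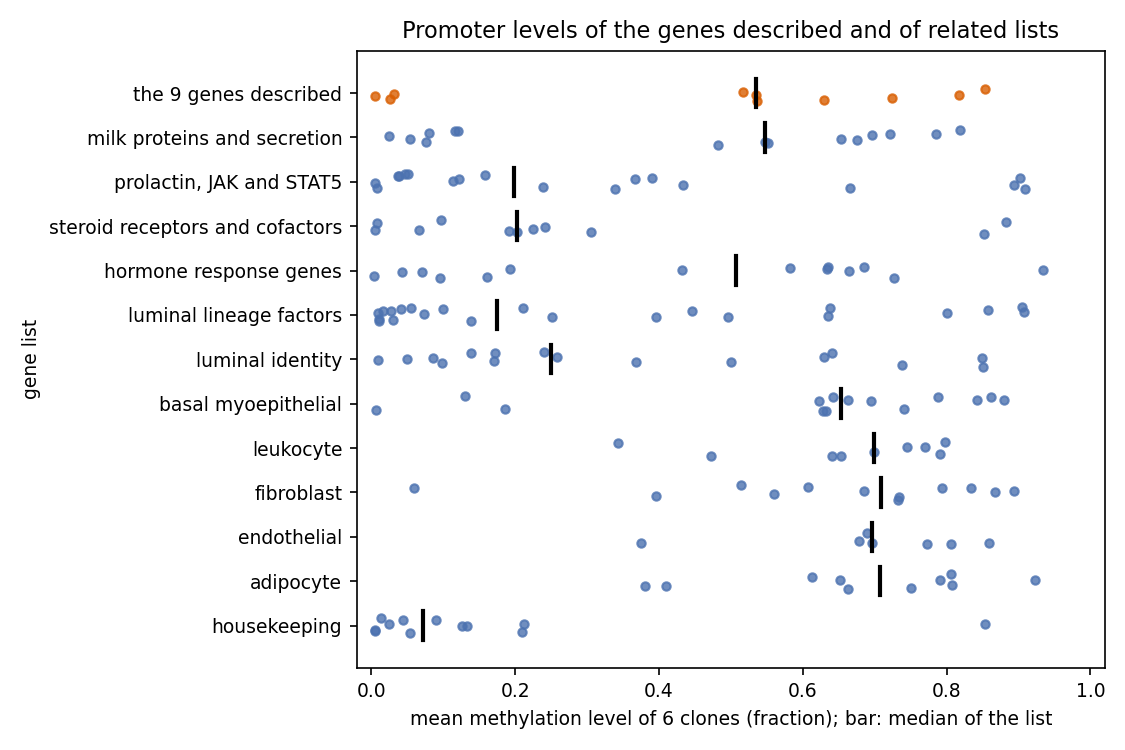
Mean methylation level of the 6 clones (horizontal axis, fraction) of each promoter row, by gene list (vertical axis), with a bar at the median of each list; the 10 rows described are in orange. The median is 0.536 for these rows, 0.0716 for housekeeping genes and 0.709 for fibroblast genes.

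Markers of cell types were read beside the labelled mammary epithelial origin, within the limit that a promoter level is not expression. The lists were not matched for CG count, so their medians cannot check that origin. Luminal genes had a median level of 0.250 over 16 rows, with Cd24a lowest at 0.00999, 1 of the rows of Kit highest at 0.851 and the tight junction gene Cldn4 most variable, with a range of 0.243. The epithelial genes Epcam and Cdh1 were at 0.172 and 0.0856, whereas Krt19 and Aldh1a3 of the same list were at 0.500 and 0.738. Of the 16 luminal rows, 4 had a mean under 0.1 and 2 a mean of at least 0.8. Cdh1 and Cldn4 were the 2 luminal rows with an unadjusted limma p under 0.05, singled out after their values were seen, at 0.0373 and 0.0254. Both had the higher mean in clones E and T, by 0.0413 and 0.111, and neither passed the adjusted limma test. Cldn4 was high in clone E alone, with 0.256 (E) and 0.0880 (T), against 0.0625 (I), 0.0624 (K), 0.0126 (L) and 0.105 (P). Basal genes had a median of 0.653 over 14 rows, from Vim at 0.00643 to the oxytocin receptor gene Oxtr at 0.880, and Snai2 had a range of 0.188. Krt14 and Itgb4 of the basal list were at 0.186 and 0.130, whereas Krt5 and Krt17 were at 0.643 and 0.741. Of the 14 basal rows, 1 had a mean under 0.1 and 3 a mean of at least 0.8. Medians were 0.6996 for leukocyte, 0.709 for fibroblast, 0.696 for endothelial and 0.707 for adipocyte genes. Housekeeping genes had a median of 0.0716, and Pgk1 was the lowest at 0.00473. In these non-mammary lists the ends were Lyz2 at 0.343 and Cd79a at 0.797, Pdgfra at 0.0597 and Col1a2 at 0.894, Flt1 at 0.375 and Pecam1 at 0.860, and Lipe at 0.381 and Pparg at 0.923. The largest ranges were those of Lyz2 (0.199), Col3a1 (0.221), Cdh5 (0.196) and Plin1 (0.183). Single rows with an unadjusted limma p under 0.05, singled out after their values were seen, were found in 3 more lists. Mycn of the luminal lineage factors (difference -0.0616, limma p of 0.0397) and Cd68 of the leukocyte genes (-0.0932, limma p of 0.0167) were lower in mean in clones E and T. Ppia of the housekeeping genes (0.0212, limma p of 0.0437) was higher in mean there. None of these 3 rows passed the adjusted limma test, and 3.93% of all promoters had an unadjusted limma p under 0.05.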

How the data were processed

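Bisulfite libraries had been read as paired ends of 76 nt, per the labels' protocols. The labels describe 14 libraries, from 2 rounds of each of 6 clones and of the parental line, which was not analysed here. The authors deposited 1 fraction methylated per promoter and clone. How rounds were combined, the aligner and the promoter boundaries were not given in the sources used here. Bedtools, DESeq and mm10 are named in the submitters' processing notes, with no role. No counts or coverage came with the deposited fractions, so the depth is unknown and no counting interval is given. The labels do not call the rounds separate cultures, so each clone was 1 replicate. The p-values rest on the spread between these clones only, which limma moderates over all promoters.

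Repeated rows of 1 gene with the same 6 levels, 145 of 22110, were counted once. The groups were set against each other by limma 3.58.1 (R 4.3.3; eBayes, trend on the mean) over all 21965 rows, with Benjamini-Hochberg adjustment and a threshold of 0.05. A gap of 0.1 without overlap named genes of the lists, besides those with the lowest and highest mean and the largest range in each list. Neighbours were the nearest genes with a level in RefSeq GRCm38.p6, and were added after values were seen. The table of hypomethylated regions was not used here, since its coordinates on several chromosomes run beyond the last GRCm38 gene. Python 3.11.15, pandas 2.3.3, NumPy 2.4.6 and matplotlib 3.10.9 were used for the rest. Some genes named by the rule for the lists are not reported here. The genes and lists were chosen with earlier results of these data known. Alternatives were a logit scale bounded at 0.01 and 0.99, an arcsine scale, no trend, centred clones, a range of at least 0.1, repeated rows kept, an adjusted p under 0.10 and each clone left out.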

Additional observations from a re-analysis of the deposited data

Results flagged for a closer look

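In 5 of 44 promoters looked at, 10 of them the rows described and 34 named from the lists, the highest or lowest of the 4 non-intravasating clones stood apart from the other 3. Chance flags about 5% of such groups where they are independent. These promoters share the same 4 clones, and clone L was the lowest of the 6 at 36.0% of all promoters, so the counts cannot be set against that rate. The gap to the nearest clone, as a share of the group's range, was 0.869 for Ccnd1 (clone I highest), 0.970 for Wnt4 (clone L lowest), 0.887 for the higher Tbx3 row (clone L lowest), 0.871 for Col1a2 (clone K highest) and 0.861 for the higher Pparg row (clone L lowest). Their ranges over the 6 clones ran from 0.00452 for Ccnd1 to 0.0669 for the higher Pparg row. None of the 10 rows of the hormone and lineage genes was among the 5 flagged.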

How the results depend on the processing

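No row of the 10 was called under any alternative, with smallest adjusted limma p per setting between 0.662 and 1.0. Over all promoters limma called 2, against 0 without the mean trend, 5 after centring and 25 where promoters under a range of 0.1 were left out, a setting in which 3 of the 10 rows remained in the test. With a clone left out 0 to 4 were called. With no mean trend 943 promoters had an unadjusted limma p under 0.05. Without clone L, which gave 0 calls, 1691 did. The difference of the clone means over all promoters was -0.00646, and -0.0200 to 0.00709 with a clone left out, turning without clone T.

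The scales, centring and the left-out clones gave 89 differences of single rows that could change, of which 76 kept their sign and 13 turned. Gata3 has no value on the logit scale, since its levels all lie under the bound of 0.01. After centring the lower Elf5 row was at 0.0000865 and Gata3 at 0.00587. Centring subtracts each clone's median over all promoters, from 0.296 (clone L) to 0.352 (clone I). Gata3, Foxa1 and Esr1 lie under 0.1 in every clone, so their centred values follow these medians as well as the promoter. Wap was at -0.0483 on the logit and -0.00449 on the arcsine scale. With a clone left out the differences were -0.0457 to 0.0494 for Csn3, -0.0305 to 0.0158 for the lower and -0.0886 to 0.0194 for the higher Elf5 row, -0.00378 to 0.009996 for Foxa1 and -0.0348 to 0.0230 for Wap. Esr1, Pgr, Prlr and Ltf kept a negative difference in every alternative run, at -0.0259 to -0.0151, -0.0327 to -0.00728, -0.0524 to -0.00214 and -0.0894 to -0.0416 with a clone left out. The unadjusted limma p of Esr1 was 0.0279 to 0.208 with a clone left out, under 0.05 without clone I or K, and was 0.0439 on the logit scale, 0.214 without the mean trend and 0.608 after centring. The causes were not tested. With 1 intravasating clone left, its spread was assumed to be like that of the others. No paired analysis was possible because both rounds of a clone share 1 value.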
